A study of Mus musculus with 4 samples.

Results

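The SWI/SNF (BAF) chromatin remodelling complexes were examined in CD24+ splenic emergency progenitors (EPs), through the 10 subunit genes *Smarca4*, *Smarca2*, *Smarcb1*, *Smarcc1*, *Smarcc2*, *Smarcd1*, *Smarcd2*, *Smarce1*, *Arid1a* and *Arid2*. They were chosen by gene symbol, as the ATPases and core subunits of the complex, and are 10 of the 40213 gene symbols in the deposited tables. All 10 passed the filter on low counts that left 12393 genes to test. EPs are CD11c+CD117+ precursors of dendritic cells (DCs) that expand under the DC growth factor Flt3L, and the libraries compare mice with and without deletion of *Topbp1*, a scaffold protein of DNA replication and transcription, to ask which transcripts depend on it. There were 2 libraries from WT mice, the Topbp1 fl/fl littermates, and 2 labelled TopBP1cKO, from Topbp1 fl/fl mice with CD11c-cre, so that every mouse carried the floxed alleles and deletion was limited to cells that use the CD11c promoter. All mice were 7 to 10 weeks of age, were injected with Flt3L-Ig (10 μg, on days 0 and 3), and gave EPs sorted from the spleen on day 9. How many mice went into each library is not given in the sources used here, so the P values measure the spread between these libraries.

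*Topbp1* itself had 1102 and 1143 counts in WT, 773 in TopBP1cKO replicate 1 and 1279 in TopBP1cKO replicate 2. TopBP1cKO replicate 2 was thus above both WT libraries in the deleted gene (log2 fold change over both −0.20, FDR 0.774), so these libraries are named by their label throughout. Library totals ran from 14561583 to 15193831 counts. The genes of the sorting gate were abundant in every library, *Itgax* (CD11c) at 614 to 690 CPM, *Kit* (CD117) at 383 to 481 CPM and *Cd24a* at 756 to 972 CPM, where CPM are counts scaled to library size with the TMM factors. Together with *Flt3* they summed to 2790 and 2714 CPM in WT and 2632 and 2401 CPM in TopBP1cKO replicates 1 and 2. Of these 4 genes, 3 were lower and 1 higher in both libraries labelled TopBP1cKO, against 20.8% and 22.8% of all genes tested. TopBP1cKO replicate 2 also stood apart in the cell cycle genes, where *Mki67*, a marker of dividing cells, had 216, 202, 253 and 785 CPM in the order WT 1, WT 2, TopBP1cKO 1 and TopBP1cKO 2, an order used below for all sets of 4 values. For this reason, values without that library stand beside the results that depend on it.

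SWI/SNF complexes use ATP to slide or evict nucleosomes and so open promoters and enhancers to transcription factors. Each complex holds a single ATPase, Brg1 (*Smarca4*) or Brm (*Smarca2*), on a core of *Smarcc*, *Smarcd*, *Smarcb1* and *Smarce1* products. Canonical BAF complexes carry *Arid1a* or *Arid1b* and PBAF complexes carry *Arid2*. In haematopoiesis the complexes work with lineage factors such as PU.1, and Brg1 and Brm have been described as partners that TopBP1 recruits to restrain E2F1.

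The paralogs Brg1 and Brm exclude each other within a complex, so reads have to be told apart between similar sequences. The coding sequence around the ATP-binding loop, a conserved part of the ATPase, is shown for both to let the similarity be seen, with capitals at the bases that differ. The *Smarca4* stretch lies at chr9:21660735-21660824 on the plus strand in exon 16 of 34, and the *Smarca2* stretch at chr19:26676661-26676750 on the plus strand in exon 15 of 34 (GENCODE transcripts, GRCm38).
Smarca4: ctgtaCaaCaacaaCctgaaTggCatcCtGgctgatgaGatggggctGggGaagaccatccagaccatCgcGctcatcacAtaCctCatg
Smarca2: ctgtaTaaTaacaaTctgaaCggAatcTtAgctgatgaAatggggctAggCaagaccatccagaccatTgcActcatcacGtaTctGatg

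Of these 90 bases, 15 differ, and the longest identical run is 17 bases. Over the aligned coding sequence the ATPases were 74.6% identical with no shared run above 20 bases. The *Smarcc1* and *Smarcc2* coding sequences were 71.6% identical, those of *Smarcd1* and *Smarcd2* 70.7%, and those of *Arid1a* and *Arid1b* 69.3%. No pair of paralogs shared a 31-base sequence in the reference transcripts. Outside the family, *Smarce1* shared 16.2% of its 31-base sequences with other genes, most with the gene model *Gm8494*, and its counts are uncertain to that extent. *Smarcc1* shared 4.6%, *Smarcb1* 3.99%, and the remaining members at most 2.52%.

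RefSeq promoters, from 250 bases before to 50 bases after a start site (GRCm38.p6), were at hand for 8 of the 10 genes, with 9 start sites in all. Most were rich in CpG, with a median of 66.0% GC and 33 CG dinucleotides, against 52.7% and 7 for the 32851 promoters in the table. *Smarcd2* was the exception, at 55.0% and 4. Since TopBP1 and the ATPases have been linked to E2F1, the promoters were searched on both strands for the E2F motif in the forms TTTCCCGC, TTTCGCGC, TTTGCCGC and TTTGGCGC, which can share the letters GAAA or their complement with the ETS-IRF motif below. It occurred in 2.26% of all promoters, at a start site of *Arid1a* and at that of *Smarcd1*, which are shown with the match in capitals. The match starts 55 bases before this *Arid1a* start site (chr4:133753936-133754235, minus strand). It starts 131 bases before that of *Smarcd1* (chr15:99702037-99702336, plus strand). The other *Arid1a* start site (chr4:133756720-133757019, minus strand) had no match.
Arid1a promoter: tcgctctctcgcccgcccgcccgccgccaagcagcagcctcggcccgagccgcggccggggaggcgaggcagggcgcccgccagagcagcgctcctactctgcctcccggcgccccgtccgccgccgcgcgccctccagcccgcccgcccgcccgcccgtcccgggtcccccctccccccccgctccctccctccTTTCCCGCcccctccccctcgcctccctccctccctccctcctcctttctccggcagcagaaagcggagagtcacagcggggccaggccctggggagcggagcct
Smarcd1 promoter: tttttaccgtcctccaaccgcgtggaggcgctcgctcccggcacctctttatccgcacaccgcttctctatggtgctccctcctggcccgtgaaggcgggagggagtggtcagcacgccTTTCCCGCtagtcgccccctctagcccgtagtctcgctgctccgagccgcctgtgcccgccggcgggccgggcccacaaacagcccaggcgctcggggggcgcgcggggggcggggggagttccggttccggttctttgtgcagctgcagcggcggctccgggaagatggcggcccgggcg

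The PU.1 motif AGGAAGT, found in 9.35% of all promoters, and the ETS-IRF composite motif GGAANNGAAA, found in 2.72%, were in none of the 9. A match or its absence describes the letters of this window only.

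No difference between WT and the libraries labelled TopBP1cKO passed the test for any of the 10 subunits. By edgeR's quasi-likelihood fit, with FDR by Benjamini–Hochberg over every gene tested, 0 of 10 passed FDR < 0.05, against 0.105% of all genes (0.0807% higher and 0.0242% lower). An unadjusted P value below 0.05 was reached by 0 of 10, against 10.7% of all genes (6.95% higher and 3.77% lower). The DESeq2 Wald test, the likelihood ratio test of edgeR and limma-voom also called 0. The log2 fold changes were above 0 for 5 genes and below 0 for 5, with a median of −0.0014 against 0.0084 over all genes. Their 95% intervals together reached from −0.43 to 0.54, which as folds are 0.744 for the lower bound of *Smarca2* and 1.46 for the upper bound of *Smarcc1*. Summed over the 10 genes, expression was 1685, 1728, 1577 and 1810 CPM, and both WT libraries lay between the libraries labelled TopBP1cKO. In bulk libraries, fewer cells of a kind and less RNA per cell cannot be told apart.

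**Figure D1:**
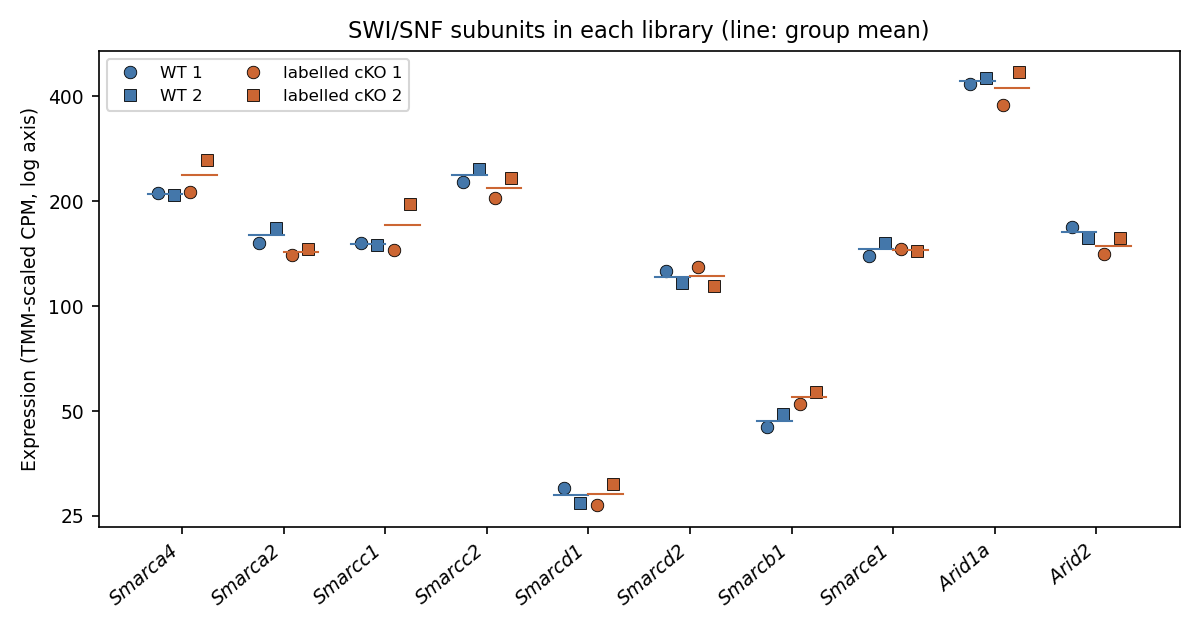
Expression of the 10 SWI/SNF subunit genes (TMM-scaled CPM, log axis) in each of the 4 libraries, with blue points for WT, orange points for the libraries labelled TopBP1cKO, circles for replicate 1, squares for replicate 2 and lines at the group means. The points of a gene lie close together, and the squares of TopBP1cKO replicate 2 for Smarca4 (262 CPM) and Smarcc1 (197 CPM) stand highest above their WT libraries.

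The libraries of the groups did not overlap for 4 of the 10 genes, *Smarca4* and *Smarcb1* higher and *Smarca2* and *Arid2* lower in the libraries labelled TopBP1cKO, against 43.6% of all genes tested (22.8% higher and 20.8% lower). Without TopBP1cKO replicate 1, which leaves 1 library in that group and assumes that it varies as the others do, *Smarcc1* (0.38, FDR 0.0187) and *Smarca4* (0.32, FDR 0.0418) were called, where 20.5% of all genes were. Without TopBP1cKO replicate 2, none was called, against 1.74% of all genes, and *Arid1a* alone had an unadjusted P value below 0.05 (log2 fold change −0.23, FDR 0.402), against 11.2% of all genes.

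**Figure D2:**
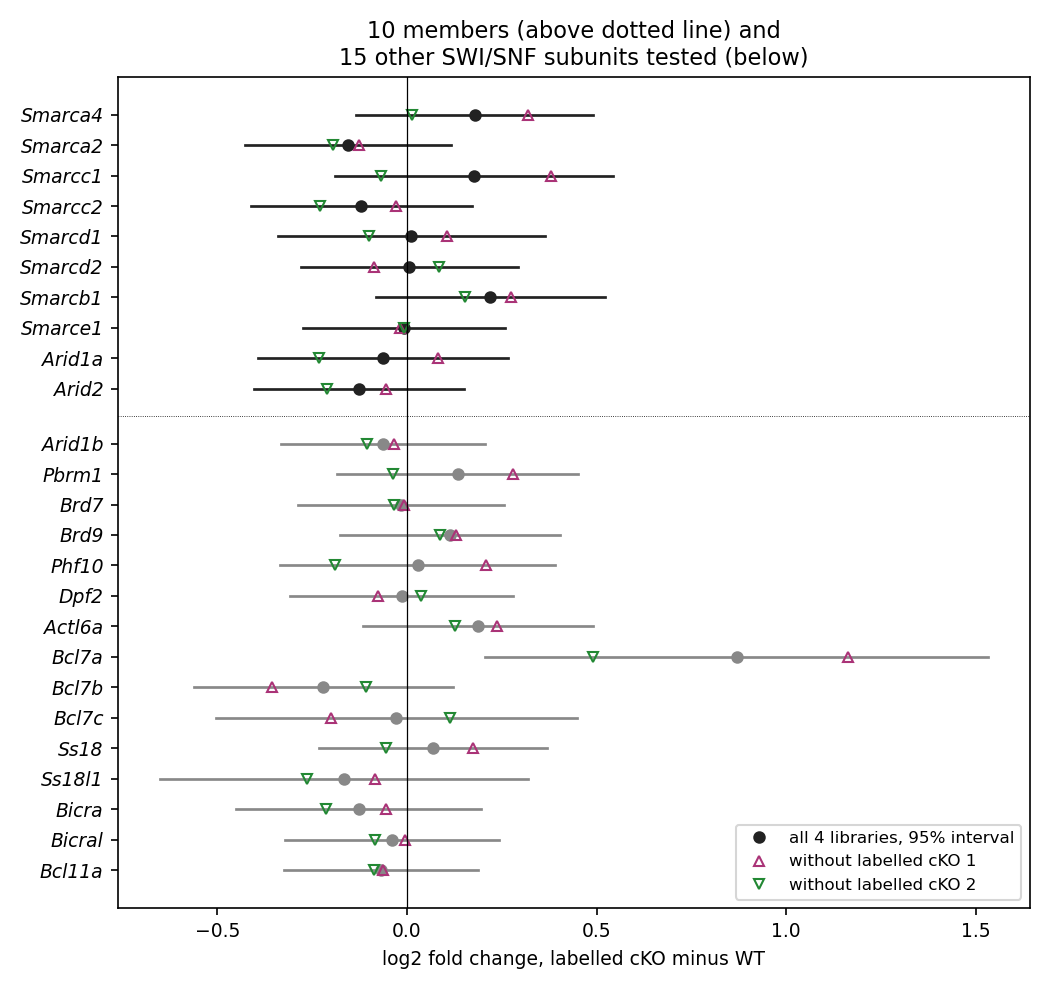
Log2 fold changes (libraries labelled TopBP1cKO minus WT, x axis) of the 10 subunit genes above the dotted line and of 15 further subunits below it, as points with 95% intervals for all 4 libraries and as triangles without either library labelled TopBP1cKO. The intervals of the 10 genes all cross 0, and for Smarcc1, Smarcd1, Smarcd2 and Arid1a the triangles fall on either side of 0.

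The ATPase genes leaned in opposite directions. *Smarca4*, on chromosome 9, encodes Brg1, the ATPase that most haematopoietic lineages require. Its expression was 212, 208, 213 and 262 CPM, or 2998, 3151, 3250 and 4057 counts. TopBP1cKO replicate 1 was level with the WT libraries, and only TopBP1cKO replicate 2 rose clear of them. The log2 fold change of *Smarca4* was 0.18 (SE 0.13, 95% interval −0.13 to 0.49, FDR 0.680) and 0.01 without TopBP1cKO replicate 2.

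*Smarca2*, on chromosome 19, encodes Brm, the ATPase often linked to less proliferative and more differentiated cells. Its expression was 152, 167, 140 and 146 CPM. Both libraries labelled TopBP1cKO were below both WT libraries. For *Smarca2* the log2 fold change was −0.16 (SE 0.12, 95% interval −0.43 to 0.12, FDR 0.678), and it stayed between −0.22 and −0.10 when each library was left out in turn.

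*Smarcc1* and *Smarcc2* encode BAF155 and BAF170, the scaffold on which the core is built. *Smarcc1*, on chromosome 9, had 152, 150, 145 and 197 CPM, so that TopBP1cKO replicate 1 was the lowest and TopBP1cKO replicate 2 the highest library. Its log2 fold change was 0.18 (SE 0.16, 95% interval −0.19 to 0.54, FDR 0.725) and changed sign to −0.070 without TopBP1cKO replicate 2. *Smarcc2*, on chromosome 10, had 227, 248, 204 and 233 CPM (log2 fold change −0.12, SE 0.13, FDR 0.771). The WT libraries and those labelled TopBP1cKO overlapped for both scaffold genes.

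*Smarcd1* and *Smarcd2* encode BAF60a and BAF60b, accessory subunits that contact transcription factors, and *Smarcd2* is known for its role in granulocyte maturation. *Smarcd2*, on chromosome 11, had 126, 117, 129 and 114 CPM. The libraries labelled TopBP1cKO bracketed the WT libraries, and the log2 fold change was 0.0058 (SE 0.12, FDR 0.989). *Smarcd1*, on chromosome 15, had 30.0, 27.3, 26.8 and 30.8 CPM, also with the WT libraries inside the range of the others (log2 fold change 0.01, SE 0.15, FDR 0.985). The remaining member of this family, *Smarcd3* (BAF60c, a subunit of heart and muscle), had 1, 3, 9 and 2 counts and was not tested.

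*Smarcb1*, on chromosome 10, encodes SNF5 (BAF47), the core subunit that grips the acidic face of the nucleosome and is lost in rhabdoid tumours. It had 44.9, 49.0, 52.5 and 56.8 CPM, with both libraries labelled TopBP1cKO above both WT libraries. Its log2 fold change of 0.22 was the largest of the 10 genes (SE 0.13, 95% interval −0.08 to 0.52, FDR 0.593), and it was 0.15 to 0.27 with each library left out. *Smarce1* encodes BAF57, an HMG-box subunit that contacts DNA. It had 139, 152, 146 and 144 CPM, with the WT libraries on either side of the rest (log2 fold change −0.0085, SE 0.11, FDR 0.984).

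*Arid1a*, on chromosome 4, encodes BAF250a, the subunit that defines canonical BAF and is often mutated in cancer. It had 433, 453, 379 and 469 CPM. The libraries labelled TopBP1cKO lay on either side of the WT libraries. The log2 fold change of *Arid1a* was −0.06 (SE 0.14, 95% interval −0.39 to 0.27, FDR 0.911), and it went to 0.081 without TopBP1cKO replicate 1 and to −0.23 without TopBP1cKO replicate 2. *Arid2* encodes BAF200, which defines PBAF. It had 169, 156.80, 141 and 156.76 CPM. WT replicate 2 and TopBP1cKO replicate 2 were thus level, and the groups failed to overlap only by the margin between those values (log2 fold change −0.13, SE 0.12, FDR 0.741).

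Because the paralogs compete for a place in the complex, their shares within each library were compared after counts were divided by transcript length. The Brm share of the ATPase transcripts was 53.2% and 56.4% in the WT libraries and 51.1% and 47.4% in those labelled TopBP1cKO, or 54.8 ± 2.28% against 49.2 ± 2.63% (SD, n = 2). Both libraries labelled TopBP1cKO were lower, by 5.57 percentage points in the mean, and the exact two-sided permutation test gave P = 0.33, the smallest value that 2 libraries against 2 allow. With each library left out, the differences ran from −7.43 to −3.70 points. Since the groups did not overlap, leaving out a library could not change the direction. By count alone, the ratio of *Smarca4* to *Smarca2* was 1.39 and 1.25 in the WT libraries and 1.52 and 1.79 in those labelled TopBP1cKO, and the log2 fold changes of *Smarca4* and *Smarca2* differed by 0.33. The level of the Brm share rests on a stand-in length for *Smarca2*. With the longest transcript length it was 43.6%, 46.4%, 41.5% and 37.5%, and without division by length 41.8%, 44.5%, 39.7% and 35.8%.

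The BAF170 (*Smarcc2*) share of the scaffold transcripts went the same way, from 67.6% and 69.8% in the WT libraries to 66.3% and 62.4% in those labelled TopBP1cKO (difference −4.35 points, exact permutation P = 0.33). The difference was −2.38 points without TopBP1cKO replicate 2 and −6.32 points without TopBP1cKO replicate 1. In the other families the groups overlapped. *Smarcd2* made up 82.0% to 84.9% of the *Smarcd* transcripts and *Smarcd3* at most 0.607%. *Arid1b* made up 19.0% to 21.7% of *Arid1a* and *Arid1b* together, and *Arid2* 20.7% to 22.8% of the 3 ARID genes. For these 4 shares the exact permutation P values were 0.667 or 1, over 6 shares compared, and with the smallest possible P at 0.33 none of the 6 could pass an adjusted threshold.

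**Figure D3:**
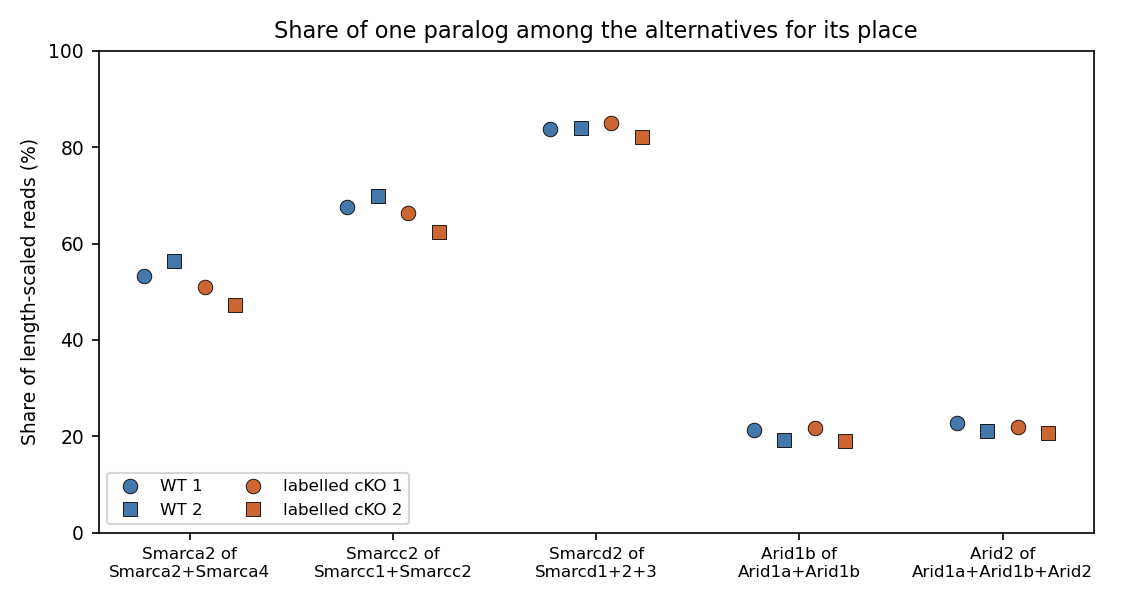
Share of one paralog among the genes that compete for its place (y axis, percent of length-scaled reads) in each library, with blue for WT, orange for the libraries labelled TopBP1cKO, circles for replicate 1 and squares for replicate 2. For Smarca2 (47.4% to 56.4%) and Smarcc2 (62.4% to 69.8%) both orange points lie below both blue points, and in the other shares they overlap. The level of the Smarca2 share depends on a stand-in transcript length.

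Levels between genes were compared per length, as RPKM, the TMM-scaled CPM divided by transcript length in kilobases. In WT EPs, *Smarcc2* was at 58.0 ± 3.60 RPKM, *Arid1a* at 54.2 ± 1.70, *Smarce1* at 49.9 ± 3.01 and *Smarcd2* at 45.2 ± 2.02 (SD, n = 2). The ATPases followed at 40.5 ± 2.74 RPKM for *Smarca2* and 33.4 ± 0.816 for *Smarca4*, then *Smarcb1* at 28.7 ± 1.83 and *Smarcc1* at 26.4 ± 0.307. *Arid2*, at 19.1 ± 1.00 RPKM, and *Smarcd1*, at 8.65 ± 0.578, were lowest. Over the 4 libraries, *Smarcc2*, *Arid1a* and *Smarce1* overlapped in level, and *Smarcd2* overlapped *Arid1a*. *Smarca2* overlapped *Smarca4*, and *Smarcb1*, *Smarcc1* and *Smarca4* overlapped each other. *Arid2* and *Smarcd1* were separate from all the other members. *Arid1b*, the alternative to *Arid1a* in canonical BAF, was at 13.7 ± 0.870 RPKM and below *Arid1a* in every library.

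The order of the ATPases in level depends on length. The reference gave a length for transcripts holding 8.58% of the counts of *Smarca4* and 0% of those of *Smarca2*. For the rest, the median length of the gene's reference transcripts that match RefSeq stood in (3941.5 bases for *Smarca2*). With the longest transcript, *Smarca2* in WT EPs came to 27.0 RPKM and lay below *Smarca4* at 32.96, and *Smarcb1* fell from 28.7 to 6.31.

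The deposited tables count each RefSeq transcript, and the 10 genes have 75 transcripts, of which 52 had a count and 24 a count in every library. In the quasi-likelihood test of edgeR on each transcript, 32 were tested and 0 passed FDR < 0.05, and 0 of the 29581 transcripts of all genes did. An unadjusted P value below 0.05 was reached by 4 of the 32, against 6.82% of all transcripts. The likelihood ratio test of edgeR, which called 4.71% of all transcripts, called 1 of the 32. This was NR_175916.1, a noncoding transcript of *Smarca2*, with 41 and 33 counts in WT and 0 in either library labelled TopBP1cKO (FDR 0.00657), where a count of 0 allows up to 3 in a library by counting error alone.

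Single transcripts of the ATPase genes varied far more than the gene. The transcript NR_175915.1 of *Smarca2* had 98, 848, 599 and 463 counts, so the WT libraries spanned the others. NM_001405133.1 of *Smarca2* had 904, 531, 215 and 354 counts, lower in both libraries labelled TopBP1cKO, and XM_006510120.2 of *Smarca4* had 623, 504, 909 and 1062 counts, higher in both. Both reached an unadjusted P value below 0.05 and neither passed FDR < 0.05 (FDR 0.670 and 0.566). In all, 11 of the 75 transcripts had at least 100 counts in 1 library and 0 in another, 4 of them of *Smarca2* and 4 of *Smarca4*. Such transcripts overlap along most of their length, and a count for each depends on how reads were shared out between them.

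In *Smarcc1* the gene sum and its main transcript differed. NM_009211.3 of *Smarcc1* had 2119, 2254, 2203 and 2241 counts, or 150, 149, 145 and 145 CPM, level in all libraries. NM_001413570.1 had 652 counts in TopBP1cKO replicate 2 and 0 in the other libraries, and NM_001413569.1 had 34, 8, 0 and 147. The transcripts other than the main one together came to 51.7 CPM in TopBP1cKO replicate 2 and at most 2.40 CPM elsewhere. All of the excess of TopBP1cKO replicate 2 in *Smarcc1* was therefore in transcripts that were nearly absent from the rest.

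**Figure D4:**
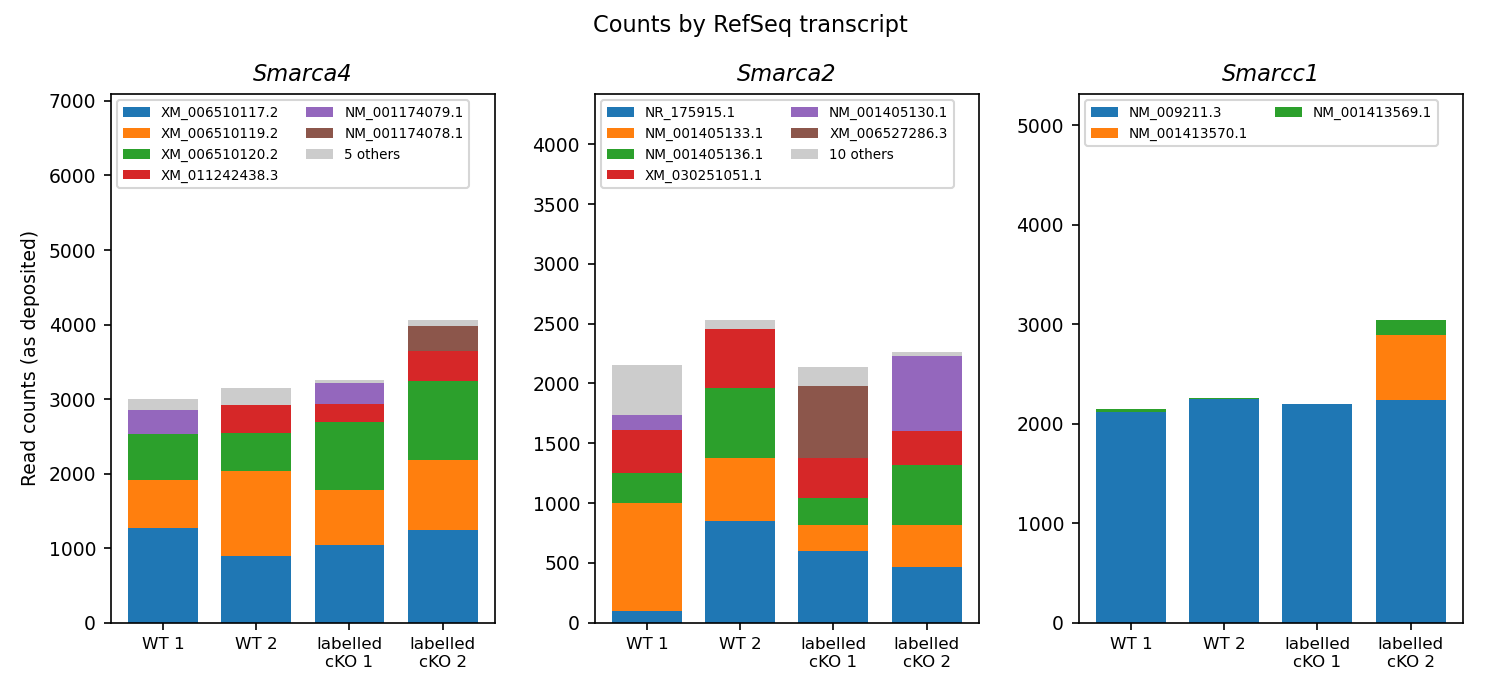
Deposited read counts (y axis, linear from 0) of Smarca4, Smarca2 and Smarcc1 in each library, stacked by RefSeq transcript. The make-up of Smarca4 and Smarca2 changes from library to library within a group, and in Smarcc1 the 652 counts of NM_001413570.1 appear in TopBP1cKO replicate 2 alone.

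Beyond the 10 genes, 19 further SWI/SNF subunit symbols were listed in the tables and 15 were tested. None was called, 1 of 15 had an unadjusted P value below 0.05, against 10.7% of all genes, and their median log2 fold change was −0.016. That gene was *Bcl7a*, of a family of small accessory subunits that touch the nucleosome, with 5.58, 5.09, 7.55 and 12.0 CPM (log2 fold change 0.87, SE 0.29, FDR 0.360). Both libraries labelled TopBP1cKO were above the WT libraries. Without TopBP1cKO replicate 1 *Bcl7a* was called (1.16, FDR 0.00119), as were 20.5% of all genes, and without TopBP1cKO replicate 2 it stood at 0.49 (FDR 0.507) and 0 of the 15 had an unadjusted P value below 0.05. *Pbrm1* and *Brd9*, which mark the PBAF and noncanonical forms, were not called. *Pbrm1*, the polybromo subunit of PBAF, had 166, 157, 158 and 196 CPM (log2 fold change 0.13, FDR 0.766). *Brd9*, the bromodomain subunit of noncanonical BAF, had 51.4, 55.5, 57.1 and 58.6 CPM (0.11, FDR 0.782), higher in both libraries labelled TopBP1cKO. The log2 fold changes without TopBP1cKO replicate 2 were −0.037 for *Pbrm1* and 0.086 for *Brd9*. *Bcl11a*, a zinc-finger factor of the BAF complex needed for lymphoid and DC development, had 183, 181, 172 and 174 CPM (−0.07, FDR 0.864). The neuronal subunits *Actl6b*, *Dpf1* and *Dpf3* had 0 to 5 counts per library.

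Other families of remodellers had no called gene either, of 9 ISWI genes, 19 CHD and NuRD genes and 14 INO80 and SRCAP genes tested. Their median log2 fold changes were 0.06, −0.015 and −0.0055. Unadjusted P values below 0.05 were held by 1 ISWI, 1 CHD and NuRD and 2 INO80 and SRCAP genes, against 10.7% of all genes. By the DESeq2 Wald test these counts were 0, 1 and 0. In the edgeR fit, *Pole3*, a histone-fold subunit of the ISWI complex CHRAC and of DNA polymerase epsilon, was higher (18.2, 22.6, 25.2 and 29.5 CPM, FDR 0.456). The AAA+ ATPases of INO80 and SRCAP complexes were higher too, *Ruvbl1* with 55.7, 53.4, 63.1 and 72.6 CPM (FDR 0.456) and *Ruvbl2* with 37.2, 38.5, 45.2 and 52.0 CPM (FDR 0.418). *Chd7*, a CHD remodeller of enhancers, was lower (119, 120, 101 and 77.5 CPM, FDR 0.379). For each of these 4 genes, TopBP1cKO replicate 2 was the farther of the 2 from the WT libraries. Over all libraries the log2 fold changes of *Pole3*, *Ruvbl1*, *Ruvbl2* and *Chd7* were 0.42, 0.32, 0.36 and −0.43. They were 0.30, 0.20, 0.25 and −0.26 without TopBP1cKO replicate 2, smaller in size and in the same direction.

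Among 7 genes for transcription factors and other proteins reported to work with TopBP1, none was called. *E2f1*, the S-phase activator, had 13.4, 13.5, 20.3 and 28.7 CPM (log2 fold change 0.87, SE 0.21, FDR 0.307) and *Irf4*, a DC transcription factor, 16.7, 18.9, 24.2 and 25.2 CPM (0.47, SE 0.16, FDR 0.364). In both, the libraries labelled TopBP1cKO were above the WT libraries. These 2 of the 7 had an unadjusted P value below 0.05, against 10.7% of all genes. Their log2 fold changes without TopBP1cKO replicate 2 were 0.59 and 0.43. *Arid1a* and *Smarcd1*, the genes of the promoters printed above with an E2F motif, had log2 fold changes of −0.06 and 0.01. The part of E2F1 in these values was not tested.

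Genes of other states and cell types moved between the same libraries. The 20 cell cycle genes summed to 753, 723, 962 and 2561 CPM. At an unadjusted P value below 0.05, 20 of 20 were higher, against 6.95% of all genes, with 0 called. Their median log2 fold change was 1.28 and fell to 0.37 without TopBP1cKO replicate 2, where some, *Plk1* and *Kif11* among them, no longer had an unadjusted P value below 0.05. The neutrophil markers summed to 1500, 1244, 3217 and 2466 CPM, with a median log2 fold change of 1.40. Of the 14 markers, 5 were called higher, against 0.0807% of all genes. At an unadjusted P value below 0.05, 12 of 14 were higher, against 6.95% of all genes. *Smarca4*, *Smarcc1*, *Smarcb1*, *Smarcd1* and *Arid1a* were highest in TopBP1cKO replicate 2, the library that was highest in the cell cycle genes. *Smarcd1* (30.8 against 30.0 CPM in WT replicate 1) and *Arid1a* (469 against 453 CPM in WT replicate 2) led by small margins. The share of all genes that were highest in that library is not given here. The part of dividing cells in the values of these subunits was not tested. *Smarcd2* and the neutrophil markers were both higher in replicate 1 than in replicate 2 of either group, and the part of neutrophils in the value of *Smarcd2* was not tested.

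Of the remaining cell types, the T cell, macrophage and erythroid markers were low, and the B cell and pDC markers were higher than these. The B cell markers summed to 76.3, 70.3, 88.4 and 88.9 CPM. Of these, 6 of 8 were higher in both libraries labelled TopBP1cKO, against 22.8% of all genes, and 0 had an unadjusted P value below 0.05. The T cell markers summed to 5.65, 5.69, 18.8 and 7.5 CPM. Of 3 tested, 2 were higher at an unadjusted P value below 0.05, against 6.95% of all genes. Both lists were thus higher in the libraries labelled TopBP1cKO, the T cell markers most in replicate 1. The macrophage markers summed to 18.2, 19.0, 15.2 and 16.04 CPM and the erythroid markers to 15.97, 13.1, 18.1 and 18.5 CPM. The pDC markers summed to 202, 208, 182 and 176 CPM, lower in both libraries labelled TopBP1cKO. *Cox6a2*, on the pDC list, was the only gene of these 5 lists to be called. It was called higher in the libraries labelled TopBP1cKO, against the direction of the pDC sum. *Cd3e*, a defining T cell marker, was at or below 1.58 CPM in every library. The part of these cell types in the subunit values was not tested.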

How the data were processed

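RNA of sorted CD24+ EPs was made into libraries with the CORALL RNA-seq V2 kit. The authors deposited whole-number read counts per RefSeq transcript, without normalization. The submitters' processing notes name fastp, STAR, Salmon, GATK and the GRCm39 build, with no versions or roles, and how reads that fit several transcripts were counted is not given in the sources used here. The counts are whole numbers, so any rounding of estimates came before deposit, and use of molecular identifiers is not stated. The labels name RNAiso Plus for the RNA and the methods of the study an RNeasy kit. Transcript-level differences depend most on this counting.

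Counts were summed per gene symbol, and placeholder rows with no accession held 3.03% to 4.86% of a library. Genes passing filterByExpr were fitted in edgeR 4.0.16 (R 4.3.3) with TMM scaling and genotype as the only term (glmQLFit and glmQLFTest), and the 12393 P values were adjusted by Benjamini–Hochberg (FDR < 0.05). SE and 95% intervals came from the same fit. The biological coefficient of variation was 15.2%. DESeq2 1.42.0, limma-voom 3.58.1, other scalings and filters, a replicate block and leaving out each library were alternatives. No libraries were duplicates (chi-square per degree of freedom at least 11.2 between any pair). Same-numbered libraries did not deviate together (correlation −0.0147 across genes), so the numbers do not pair them. Scripts were tested on simulated data. Intervals for counts of 0 cover counting error only, since reads counted without molecular identifiers may repeat a molecule.

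Lengths, coding sequences and 31-base sequences came from GENCODE transcripts of GRCm38, and promoters from RefSeq on GRCm38.p6. The reference is not the build of the counts, so its coordinates are given for sequences only. The 10 genes and the lists were chosen with earlier results of these data known. Genes named are the 10, *Topbp1* and genes of the lists. Protein sequences were not used here. Some marker genes are not reported here.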

Additional observations from a re-analysis of the deposited data

How the results depend on the processing

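The number of genes at FDR < 0.05 was 13 and moved to 137 with the DESeq2 Wald test, 234 with the likelihood ratio test of edgeR and 504 with the replicate block, and to between 1 and 2625 with each library left out. No paired design stands behind the block, since the replicate numbers pair no libraries, and 0 of the 10 subunits were called with it. Under the 8 settings that keep all libraries, 0 of 10 were called and 0 had an unadjusted P value below 0.05. With each library left out, between 0 and 2 were called, between 0 and 3 had an unadjusted P value below 0.05, and between 0 and 1 of the further SWI/SNF subunits was called. Of the ISWI, CHD, INO80 and TopBP1 partner lists, 1 gene was called by the likelihood ratio test and 1 with the replicate block (*E2f1* in both), and between 0 and 15 with a library left out. The likelihood ratio test on transcripts called 1 of the subunit transcripts. With a library left out, the log2 fold change ran from −0.070 to 0.38 for *Smarcc1*, from −0.100 to 0.10 for *Smarcd1*, from −0.087 to 0.083 for *Smarcd2*, from −0.070 to 0.042 for *Smarce1* and from −0.23 to 0.081 for *Arid1a*. The direction reversed for *Smarcc1* (−0.070) and *Smarcd1* (−0.100) without TopBP1cKO replicate 2, for *Smarcd2* (−0.087) and *Arid1a* (0.081) without TopBP1cKO replicate 1, for *Smarcd1* (−0.068), *Smarcd2* (−0.062) and *Smarce1* (0.042) without WT replicate 2, and for *Smarce1* (0.0026) with upper quartile scaling. The cause was not tested. With 2 libraries a group, the 95% intervals leave room for a rise of up to 1.46 times in a subunit. With the median of all reference transcripts, a setting chosen after seeing the data, the shares of *Smarca2* and *Smarcc2* differed by −3.34 and −4.87 points. Their direction was the same under every length setting. A length scales a gene almost alike in every library, so these settings could hardly change the direction.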
